A study of Mus musculus with 5 samples.

Results

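The transcripts of the nuclear-encoded subunits of respiratory complexes II to V were examined in mouse neural tubes with and without the erythropoietin receptor. Members were the gene symbols beginning with Uqcr, Cox4i or Atp5, with Cox5 to Cox8 followed by a, b or c, and the symbols Sdha, Sdhb, Sdhc and Sdhd. They numbered 47 of the 23284 symbols in the count tables: 4 of complex II, 8 of complex III, 17 of complex IV, 15 of complex V and 3 (Atp5s, Atp5sl and Cox7a2l) that share the name but are not usually counted as structural subunits. PolyA RNA was sequenced from the neural tube, the embryonic tissue that gives rise to brain and spinal cord, of EpoR +/+ (wild type, n = 2), EpoR +/- (heterozygote, n = 1) and EpoR -/- (EpoR-null, n = 2) embryos. All came from crosses of EpoR +/- mice, so EpoR-null and heterozygous embryos carried the null allele in every cell and not in the neural tube alone. The wild type and heterozygous samples served as the 3 controls. The labels give the age as embryonic day 8.5, and the study's methods give a slightly later age. Nothing in the labels says whether a library holds 1 embryo or a pool, so p-values measure the spread between these 5 libraries. Mitochondrially encoded subunits were not analysed here.

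Complex II oxidises succinate and passes the electrons to ubiquinone, complex III carries them on to cytochrome c, and complex IV hands them to oxygen. Complexes III and IV pump protons across the inner mitochondrial membrane, and complex V, the ATP synthase, uses the return flow of protons to make ATP. Several complex IV subunits have an isoform found almost everywhere and another restricted to heart, skeletal muscle, lung or testis. The erythropoietin receptor signals through the kinase Jak2, chiefly in red blood cell precursors.

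Depth and sample identity came first. Gene-assigned reads per library lay between 23014710 and 41169218 for controls and came to 19316126 and 30378879 for the EpoR-null pair. Levels are given as CPM, the read count relative to a library size scaled by TMM, and 3 reads were worth between 0.0715 and 0.152 CPM. Epor, the deleted gene, had 57 and 68 reads in wild type, 11 in the heterozygote, and 7 and 19 in EpoR-null libraries, which is 2.35, 1.62, 0.475, 0.354 and 0.669 CPM. The library labelled heterozygote thus lay within the range of the EpoR-null libraries, and Epor did not pass the test (log2 fold change -1.51, standard error 0.76, FDR 0.280, edgeR exact test). All 8 neural tube markers were detected, and their summed level was 1563 to 1758 CPM in controls and 1342 and 1599 CPM in EpoR-null libraries. The 7 erythroid markers summed to 1087 and 600.4 CPM in the wild type libraries, 43.9 CPM in the heterozygote, and 1688 and 963 CPM without the receptor, with Hba-a1 at 0 in every library. The 5 endothelial markers summed to 10.8 CPM in the heterozygote, 149.9 and 235 CPM in the wild type libraries and 198 and 104 CPM in the EpoR-null libraries. The 5 paraxial mesoderm markers summed to 35.7 and 31.85 CPM in the wild type libraries, 8.78 CPM in the heterozygote and 63.9 and 24.7 CPM in the EpoR-null libraries. Since the heterozygote stood apart in the summed blood, vessel and paraxial mesoderm markers, the comparison is also given without it. The part of blood, vessel and mesoderm cells in the differences described here was not tested. In bulk tissue fewer cells of a type and less RNA per cell cannot be told apart.

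In neural tubes without the receptor, 22 of the 41 members that could be tested were called higher, by 1.38 to 1.65 fold, and none lower. Of all genes tested, 1.81% were called higher and 5.49% lower. In complex IV all 10 ubiquitous subunits were called. In complex III the calls fell on small subunits, and in complex V on the epsilon subunit, the peripheral stalk, the c-ring and the small membrane subunits. Sdha, the core proteins of complex III and the alpha and beta subunits of the ATP synthase were not called. The muscle, lung and testis isoforms stayed at or near 0 in both genotypes. None of the 22 passed a quasi-likelihood F-test without a replicate block, nor a fit with length and GC offsets, and both are described after the values.

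The test was the exact test of edgeR on raw read counts, 2 EpoR-null libraries against 3 controls, for genes above 1 CPM in at least 2 libraries, with Benjamini-Hochberg FDR over the 12703 genes tested and a call at FDR < 0.05. All 41 tested members had a positive log2 fold change, against 56.2% of all genes, and their median was 0.50 (1.41 fold) against 0.06 for all genes tested. In 36 of the 41, both EpoR-null libraries lay above all 3 controls. This ordering held in 21.2% of all genes, and the opposite one, both below all controls, in 22.1%. The share depended on transcript length. Among genes other than members the ordering held in 51.0% of those with transcripts under 600 nt and 68.5% from 600 to under 1000 nt. It held in 3.17% from 4000 nt upwards. For members it held in 14 of 15 under 600 nt and 10 of 11 from 600 to under 1000 nt. The median member stood at -0.02, -0.03 and 0.03 log2 units from the control mean in wild type 1, wild type 2 and the heterozygote, and at 0.37 and 0.58 in EpoR-null 1 and 2. Summed over the 47 members, these transcripts made up 0.658%, 0.669% and 0.676% of the scaled reads in the 3 controls and 0.800% and 0.921% in the EpoR-null libraries.

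**Figure D1:**
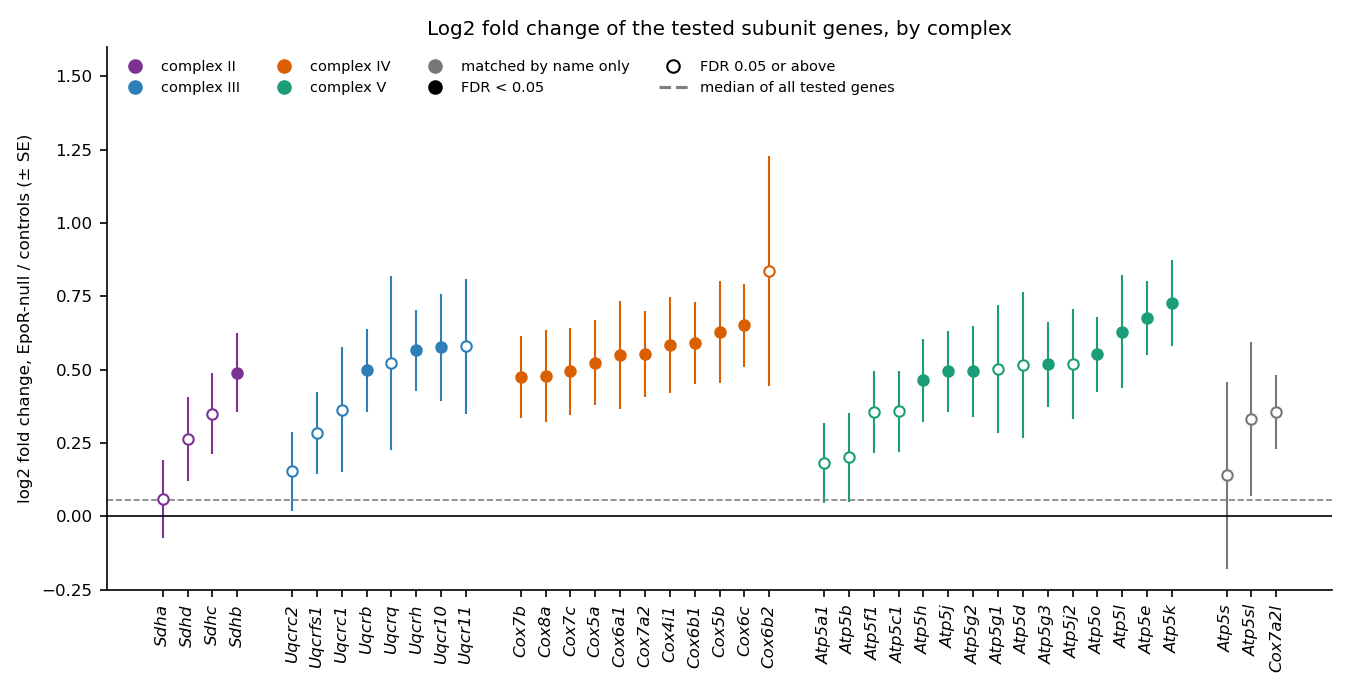
Log2 fold change of each tested member (EpoR-null over controls, vertical axis, bars are the standard error), grouped by complex. Filled points passed FDR < 0.05 in the edgeR exact test, and all 41 points lie above 0, from 0.06 for Sdha to 0.84 for Cox6b2.

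**Figure D2:**
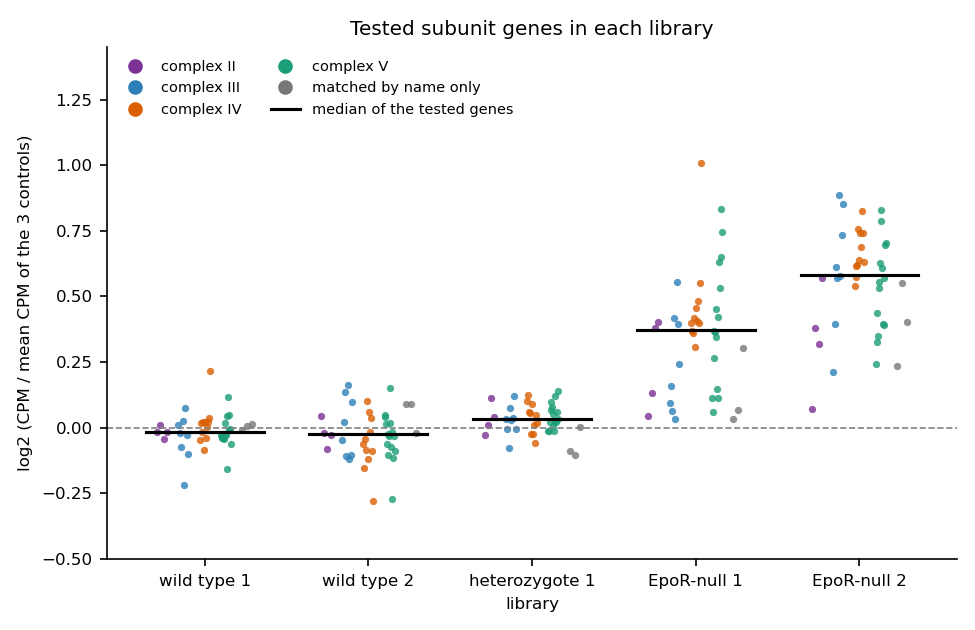
Each point is a tested member in a library, plotted as log2 of its CPM over the mean CPM of the 3 controls, with the median as a bar. The medians of EpoR-null 1 and 2, at 0.37 and 0.58, lie above those of the 3 controls, which run from -0.03 to 0.03.

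The calls depended on the test and on single control libraries. In simulated data the exact test gave a larger share of false calls than its nominal FDR. The quasi-likelihood F-test of edgeR, fitted without a replicate block, called none of the members and 0% of all genes at FDR < 0.05, with a lowest FDR of 0.059, while 32 of the 41 members and 3052 of the 12703 genes had an unadjusted p below 0.05. DESeq2 called 27 members and 575 of the 12703 genes higher. Without wild type 1, wild type 2 or the heterozygote, the exact test left 1 (Atp5e), 3 (Atp5e, Atp5k and Cox6c) and 6 (Atp5e, Atp5k, Atp5o, Cox6b1, Cox6c and Uqcrh) of the 22 calls. Calls fell over all genes as well. These fits called 4 of 12598, 14 of 12641 and 14 of 12628 genes higher, against 230 of 12703 with all libraries. All 41 fold changes remained positive in each of these fits.

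The upstream sequences of members that rose are shown because several carry the recognition core of NRF1, nuclear respiratory factor 1, a regulator of many genes of the respiratory chain. RefSeq promoter windows (GRCm38.p6, 250 bases before to 50 after a start site) were found for 37 of the 47 members. The motif GCATGCGC, searched on both strands, was in the windows of 7 of these 37 (18.9%), against 3.05% of all 27025 genes with a window. The latter were not limited to genes expressed in the neural tube. Of the 19 called members with a window, 5 (26.3%) had the core: Atp5g2, Atp5k, Atp5l, Cox6a1 and Sdhb. Of the 15 tested and not called, 2 (13.3%) had it: Uqcr11 and Uqcrc1. Whether the core goes with the calls was not tested. The 5 stretches of the called members follow, 5′ to 3′ on the strand of the gene, with the NRF1 core in capitals. In Atp5g2, Atp5k and Cox6a1 the capitals span 2 overlapping matches, 1 on each strand. For Sdhb and Atp5k, annotated transcripts of GENCODE M21 start further upstream than the RefSeq start used here.
Atp5g2 (chr15:102671070-102671099, minus strand, 42 bases before the start): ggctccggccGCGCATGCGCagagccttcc
Atp5k (chr5:108434430-108434459, minus strand, 50 bases before the start): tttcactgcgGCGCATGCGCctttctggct
Atp5l (chr9:44920965-44920992, minus strand, 240 bases before the start): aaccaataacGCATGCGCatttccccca
Cox6a1 (chr5:115349101-115349130, minus strand, 162 bases before the start): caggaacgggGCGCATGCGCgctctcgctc
Sdhb (chr4:140961207-140961234, plus strand, 54 bases before the start): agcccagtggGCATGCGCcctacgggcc

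A second core, CCGGAAG, read by GABP (also called nuclear respiratory factor 2), was in the windows of 12 of the 37 members (32.4%), against 9.93% of all genes. These were Atp5e, Atp5h, Atp5j, Atp5k, Atp5l, Cox6a1, Cox6b1, Cox8a, Sdhb and Uqcrh among the 19 called members with a window, and Sdhd and Uqcr11 among the 15 tested and not called. The YY1 core AAGATGGCG was in 3 of the 37 (8.11%, against 1.64% of all genes) and the estrogen-related receptor core AAGGTCA in 5 of the 37 (13.5%, against 5.38%). The cores do not contain one another, and a match describes the letters in the window and not binding.

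In complex II, 1 of the 4 members was called. Sdha, the flavoprotein subunit that oxidises succinate, differed little: it had 279 and 291 CPM in the wild type libraries, 277 CPM in the heterozygote and 292 and 297 CPM in the EpoR-null libraries. Its log2 fold change was 0.06 (standard error 0.13, FDR 0.853), although both EpoR-null values stood just above the controls. The called member was Sdhb, the iron-sulfur subunit that takes the electrons from Sdha. It had 93.9 and 93.3 CPM in the wild type libraries, 97.7 CPM in the heterozygote and 126 and 141 CPM in the EpoR-null libraries, with no overlap between the groups (log2 fold change 0.49, standard error 0.13, FDR 0.00754). The membrane anchors Sdhc and Sdhd, which hold the ubiquinone site, had log2 fold changes of 0.35 and 0.26 that did not pass the test (FDR 0.1004 and 0.293). In both anchors the EpoR-null libraries lay above all 3 controls.

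In complex III the core proteins and the small subunits gave different counts. They also differed in transcript length, at 1363 to 1896 nt for the 3 larger members and 405 to 547 nt for the 5 small ones. The median log2 fold changes were 0.28 and 0.57, and with length and GC offsets 0.05 and 0.09. The part of length in this difference was not tested. None of the 3 larger members was called. Uqcrc2, a core protein with the highest mean level of this complex in controls, had 199.8 and 192 CPM in the wild type libraries, 203 CPM in the heterozygote and 212 and 229.7 CPM in the EpoR-null libraries (log2 fold change 0.15, FDR 0.569). Uqcrc1, the other core protein, had 176 and 203 CPM in the wild type libraries, 176 CPM in the heterozygote and 193 and 283 CPM in the EpoR-null libraries (log2 fold change 0.36, FDR 0.334). For Uqcrc1 the groups overlapped, with EpoR-null 1 below wild type 2. Uqcrfs1, the Rieske iron-sulfur protein, had a log2 fold change of 0.28 (FDR 0.231).

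Of the 5 small subunits of complex III, 3 were called higher. Uqcrh, the hinge protein beside cytochrome c1, had 117 and 102 CPM in the wild type libraries, 114 CPM in the heterozygote and 163 and 166 CPM in the EpoR-null libraries (log2 fold change 0.57, standard error 0.14, FDR 0.00176). Uqcr10, a small membrane subunit, had 43.6 and 41.3 CPM in the wild type libraries, 48.3 CPM in the heterozygote and 58.4 and 73.8 CPM in the EpoR-null libraries (log2 fold change 0.58, FDR 0.0261). Uqcrb, which lies close to the ubiquinone site, had 71.8 and 65.5 CPM in the wild type libraries, 74.4 CPM in the heterozygote and 94.3 and 105 CPM in the EpoR-null libraries (log2 fold change 0.50, FDR 0.0109). In all 3 the EpoR-null libraries stood above every control. Uqcr11, another small membrane subunit, had the highest log2 fold change of the complex, 0.58, but also a wide standard error of 0.23 and an FDR of 0.102. Its values were 36.8 and 42.2 CPM in the wild type libraries, 39.3 CPM in the heterozygote and 46.7 and 71.1 CPM in the EpoR-null libraries. Uqcrq, a ubiquinone-binding subunit at a log2 fold change of 0.52 (FDR 0.317), overlapped: EpoR-null 1, at 40.1 CPM, lay below wild type 2, at 43.9 CPM.

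Complex IV, cytochrome c oxidase, had 11 tested members, and 10 were called higher, with log2 fold changes from 0.47 to 0.65. These 10 are the subunits found in most tissues, and they surround the catalytic core that mitochondrial DNA encodes. Cox4i1, the ubiquitous isoform of the largest nuclear-encoded subunit, had the most reads, with 183 and 195 CPM in the wild type libraries, 184 CPM in the heterozygote and 249 and 314 CPM in the EpoR-null libraries (log2 fold change 0.58, standard error 0.16, FDR 0.00912). Cox6c, a single-span membrane subunit, had the lowest FDR of the complex (0.000313). It had 88.4 and 81.0 CPM in the wild type libraries, 89.1 CPM in the heterozygote and 126 and 144 CPM in the EpoR-null libraries, a log2 fold change of 0.65 with a standard error of 0.14. For these and the other 8 called subunits the EpoR-null libraries did not overlap the controls.

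Cox5a and Cox5b, the matrix-side subunits, both rose. Cox5a had 129 and 120.1 CPM in the wild type libraries, 132 CPM in the heterozygote and 169.8 and 196 CPM in the EpoR-null libraries (log2 fold change 0.52, FDR 0.00828). Cox5b, the zinc-binding subunit, had 76.6 and 77.5 CPM in the wild type libraries, 72.5 CPM in the heterozygote and 99.5 and 134 CPM in the EpoR-null libraries (log2 fold change 0.63, FDR 0.00859). EpoR-null 2 was the higher of the pair in both, by 1.15 fold in Cox5a and 1.34 fold in Cox5b. Cox6a1 had 93.1 and 106 CPM in the wild type libraries, 97.2 CPM in the heterozygote and 122 and 167 CPM in the EpoR-null libraries (log2 fold change 0.55, FDR 0.0390), the weakest call of the complex. Cox6b1, which sits on the intermembrane side next to cytochrome c, had 117 and 115 CPM in the wild type libraries, 117 CPM in the heterozygote and 163 and 188 CPM in the EpoR-null libraries (log2 fold change 0.59, FDR 0.00102). Its 3 controls were the closest together of any called subunit of the complex.

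The smallest subunits of complex IV gave the same picture. Cox7a2 had 96.8 and 87.7 CPM in the wild type libraries, 101 CPM in the heterozygote and 131 and 148 CPM in the EpoR-null libraries (log2 fold change 0.55, FDR 0.00533). Cox7b had 77.3 and 76.5 CPM in the wild type libraries, 85.8 CPM in the heterozygote and 105 and 116 CPM in the EpoR-null libraries (log2 fold change 0.47, FDR 0.0150). In neither gene did an EpoR-null value reach down to a control. Cox7c had 110.4 and 108 CPM in the wild type libraries, 116 CPM in the heterozygote and 143 and 171 CPM in the EpoR-null libraries (log2 fold change 0.49, FDR 0.0167). Cox8a had 88.5 and 78.6 CPM in the wild type libraries, 95.4 CPM in the heterozygote and 113 and 130.4 CPM in the EpoR-null libraries (log2 fold change 0.48, FDR 0.0364). Both are small proteins with a single membrane span, and both again stood higher in each EpoR-null library than in any control.

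The tissue-restricted isoforms of complex IV were close to absent, in reads and per kilobase of transcript. Cox6b2, the testis counterpart of Cox6b1, was the only one above the filter: it had 1.98 and 1.41 CPM in the wild type libraries, 1.73 CPM in the heterozygote and 3.44 and 2.64 CPM in the EpoR-null libraries. Its log2 fold change of 0.84 was the highest of all members, but it did not pass the test (standard error 0.39, FDR 0.199). Cox4i2, known from lung and hypoxic cells, had 11 reads in each control and 14 and 27 in the EpoR-null libraries. Cox7a1, of heart and skeletal muscle, had 13, 24 and 13 reads in the controls and 14 and 24 in the EpoR-null libraries. Neither reached 1 CPM anywhere, and in both the EpoR-null CPM stood above that of the controls. Of the others, the muscle isoforms Cox6a2 and Cox8b had 1 and 3 reads over all 5 libraries, and the testis isoforms Cox8c and Cox7b2 had 1 and 0. A count of 0 allows a level of up to 0.0715 to 0.152 CPM, depending on the library. The markers of heart and striated muscle summed to only 1.30 to 2.93 CPM in the controls and 3.84 and 3.70 CPM in the EpoR-null libraries, and those of germ cells and testis to 0.778 to 1.69 and 1.57 and 1.27 CPM.

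The ubiquitous isoform therefore held nearly all of the reads of each complex IV family in both genotypes. Per kilobase of transcript, Cox4i1 made up 99.8% ± 0.070 (SD, n = 3) of its family in controls and 99.7% ± 0.014 (SD, n = 2) in EpoR-null libraries. Cox6b1 made up 98.1% ± 0.306 and 97.7% ± 0.630, and Cox7a2 made up 99.0% ± 0.092 and 99.1% ± 0.034. For Cox6b1 and Cox7a2 the ranges of the 2 groups overlapped. For Cox4i1 all 3 controls, at 99.75%, 99.86% and 99.74%, stood above EpoR-null 1 and 2, at 99.71% and 99.69%, a small gap that rests on the low counts of Cox4i2. No p is given for shares: with 2 against 3 libraries an exact permutation test cannot go below 0.1.

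**Figure D3:**
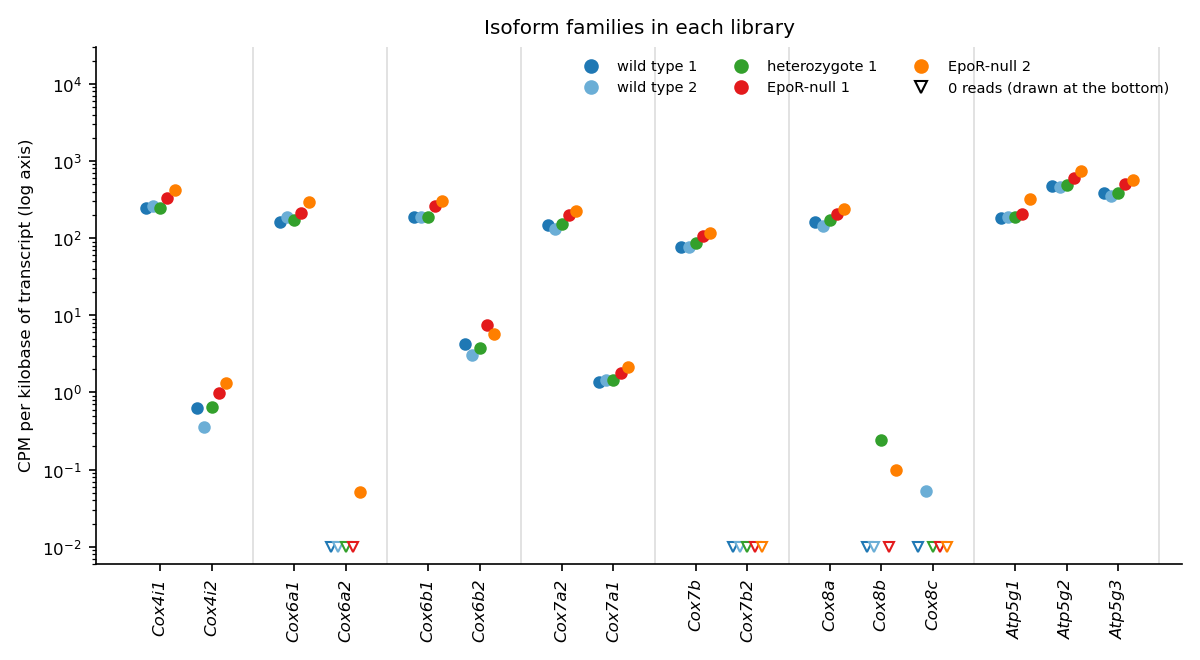
CPM per kilobase of transcript (vertical log axis) of every member of the isoform families, by library. Open triangles mark 0 reads. The ubiquitous complex IV isoforms and the 3 Atp5g genes lie at least an order of magnitude above every tissue-restricted isoform.

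Complex V had 15 members, all tested, of which 8 were called higher. Its alpha and beta subunits, which form the catalytic head, had the most reads of all members and the lowest fold changes of the complex in the exact test. Their transcripts, of 2471 and 1916 nt, were also the longest of the complex. With length and GC offsets the log2 fold changes of alpha and beta were 0.10 and 0.02, against a median of 0.10 for the complex. The lowest was then Atp5g1, at -0.00033. Atp5b, the beta subunit that carries the catalytic sites, had 1334 and 1419 CPM in the wild type libraries, 1362 CPM in the heterozygote and 1431 and 1721 CPM in the EpoR-null libraries (log2 fold change 0.20, FDR 0.496). Atp5a1, the alpha subunit, had 932 and 976 CPM in the wild type libraries, 941 CPM in the heterozygote and 1028 and 1125 CPM in the EpoR-null libraries (log2 fold change 0.18, FDR 0.491). In both, each EpoR-null library exceeded every control, though by little in EpoR-null 1. The central stalk subunit gamma, Atp5c1, had a log2 fold change of 0.36 (FDR 0.0897), and delta, Atp5d, one of 0.51 with a standard error of 0.25 (FDR 0.211). For Atp5d the groups overlapped, with EpoR-null 1 at 107 CPM, EpoR-null 2 at 175 CPM and wild type 2 at 109.5 CPM. Atp5e, the epsilon subunit of the same stalk, was called and had the lowest FDR of all members (1.54e-05). It had 66.4 and 65.1 CPM in the wild type libraries, 68.2 CPM in the heterozygote and 105 and 108 CPM in the EpoR-null libraries, a log2 fold change of 0.67 with a standard error of 0.13, and the EpoR-null libraries lay close together and far from the controls.

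The peripheral stalk, which keeps the head from turning with the rotor, had 3 of 4 members called. Atp5o, the oligomycin sensitivity protein at its tip, had 164 and 164 CPM in the wild type libraries, 168 CPM in the heterozygote and 239 and 246 CPM in the EpoR-null libraries (log2 fold change 0.55, standard error 0.13, FDR 0.00102). Atp5h, subunit d, had 125 and 126 CPM in the wild type libraries, 135 CPM in the heterozygote and 166 and 189 CPM in the EpoR-null libraries (log2 fold change 0.46, FDR 0.0201). Atp5j, coupling factor 6, had 109.6 and 101 CPM in the wild type libraries, 114 CPM in the heterozygote and 148 and 157 CPM in the EpoR-null libraries (log2 fold change 0.49, FDR 0.00859). The fourth, Atp5f1 (subunit b), had a log2 fold change of 0.36 and did not pass (FDR 0.0995). None of the 4 overlapped between the groups.

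The c-ring, the rotor through which protons pass, is built from identical c subunits that Atp5g1, Atp5g2 and Atp5g3 encode with different import peptides. Atp5g2 had 206 and 205 CPM in the wild type libraries, 217 CPM in the heterozygote and 266 and 323 CPM in the EpoR-null libraries (log2 fold change 0.49, FDR 0.0240). Atp5g3 had 275 and 254 CPM in the wild type libraries, 272 CPM in the heterozygote and 357 and 407 CPM in the EpoR-null libraries (log2 fold change 0.52, FDR 0.00934). Atp5g1 had 109.5 and 113 CPM in the wild type libraries, 112 CPM in the heterozygote and 123 and 192 CPM in the EpoR-null libraries, a similar log2 fold change of 0.50 with a wider standard error of 0.22 (FDR 0.149). EpoR-null 1 held a value near the controls in Atp5g1 and EpoR-null 2 one 1.56 times as high. The shares of the 3 genes in the family hardly differed between genotypes. Per kilobase of transcript, Atp5g1, Atp5g2 and Atp5g3 held 18.1% ± 0.595, 45.9% ± 0.713 and 36.1% ± 1.03 in controls (SD, n = 3) and 17.8% ± 2.87, 45.6% ± 0.695 and 36.6% ± 2.17 in EpoR-null libraries (SD, n = 2). The ranges of the groups overlapped for all 3 genes. In Atp5g1 the EpoR-null libraries lay on either side of the controls, at 15.8% and 19.8%. The same held in Atp5g3, with EpoR-null 1 at 38.1% and EpoR-null 2 at 35.1%. With a longer annotated transcript of Atp5g1, an alternative chosen after seeing the data, its share was 2.71% in controls and 2.68% in EpoR-null libraries. Reads from the near-identical c subunit sequences and from processed copies of these genes may have been left out by the counting, so the levels of the 3 genes are uncertain.

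The small membrane subunits of the ATP synthase, which join its dimers and shape the cristae, held the member with the highest called fold change. Atp5k, subunit e, had 54.5 and 53.6 CPM in the wild type libraries, 62.7 CPM in the heterozygote and 95.5 and 92.9 CPM in the EpoR-null libraries, a 1.65 fold difference (log2 fold change 0.73, standard error 0.15, FDR 8.88e-05). Atp5l, subunit g, had 50.3 and 44.9 CPM in the wild type libraries, 50.8 CPM in the heterozygote and 86.7 and 63.9 CPM in the EpoR-null libraries (log2 fold change 0.63, FDR 0.0200). Both of these genes have the NRF1 and the GABP core in their promoter windows, as do Cox6a1, Sdhb and Uqcr11, the last of which was not called. Neither Atp5k nor Atp5l overlapped between the groups. Atp5j2, subunit f, had a log2 fold change of 0.52 and an FDR of 0.0627, just outside the threshold, with values from 75.3 to 98.8 CPM in controls and of 141 and 119.5 CPM in EpoR-null libraries. In all 3 genes EpoR-null 1 was the higher of the pair, by the least in Atp5k.

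The 3 genes that match by name only were not called. Cox7a2l, a factor that joins complexes III and IV into supercomplexes, had 100.3 and 98.1 CPM in the wild type libraries, 99.6 CPM in the heterozygote and 123 and 131 CPM in the EpoR-null libraries (log2 fold change 0.35, FDR 0.0622), with no overlap. Atp5s and Atp5sl, the latter an assembly factor of complex I, had log2 fold changes of 0.14 and 0.33 (FDR 0.859 and 0.512) and overlapped between the groups.

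Differences between the 2 EpoR-null libraries were as large as the genotype difference in some members. EpoR-null 2 exceeded EpoR-null 1 by 1.81 fold in Uqcrq, 1.64 fold in Atp5d, 1.56 fold in Atp5g1, 1.52 fold in Uqcr11 and 1.46 fold in Uqcrc1. None of these 5 was called with both libraries. Without EpoR-null 1 the median log2 fold change of the members was 0.58, and without EpoR-null 2 it was 0.37.

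Fold change and transcript length went together, among the members and among all genes. Transcript lengths came from GENCODE M21 and were known for all 41 tested members. The called members had transcripts of 371 to 1142 nt (median 594.5) and the members tested and not called had 405 to 3171 nt (median 1363). Over the 41 members, which share the same 5 libraries, Pearson's r of log2 fold change with log2 length was -0.83 and Spearman's rho -0.80. Over the 12584 tested genes with a length they were -0.53 and -0.63. Genes other than members with transcripts under 600 nt had a median log2 fold change of 0.46, and 16.5% of these 194 genes were called higher. The 15 members in this class had a median of 0.57, and 11 were called. From 600 to under 1000 nt the 571 other genes had a median of 0.46 with 13% called higher, and the 11 members a median of 0.52 with 9 called. From 1000 to under 2000 nt the medians were 0.30 for other genes and 0.35 for members, with 3.11% of the first and 2 of 11 of the second called. From 2000 to under 4000 nt they were 0.06 and 0.26, and from 4000 nt upwards, where no member falls, other genes had a median of -0.25.

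**Figure D4:**
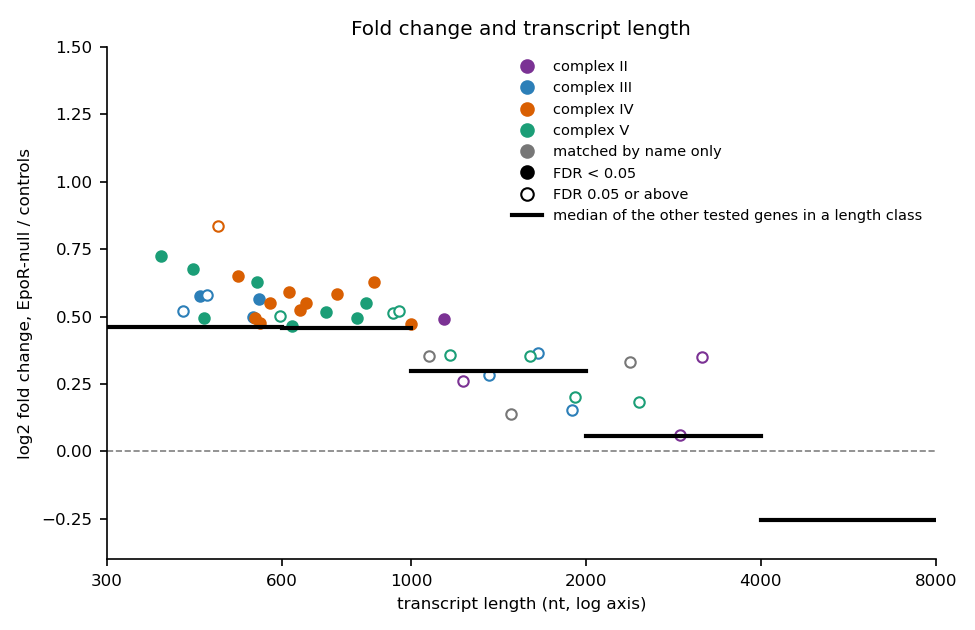
Log2 fold change of each tested member (EpoR-null over controls) against transcript length (log axis), with filled points for FDR < 0.05. Black bars show the median of the other tested genes in each length class, which goes from 0.46 under 600 nt to -0.25 at 4000 nt and above, and 15 members lie under 600 nt.

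When the trend of each library on transcript length and GC content was removed by offsets, no member passed. The comparison was made with the likelihood-ratio test of edgeR, which without offsets called the same 22 members and 1.85% of all genes higher. With offsets it called 0 of the 41 members, with a lowest FDR of 0.325 for Sdhc, and 0.159% of all genes higher (20 higher and 166 lower of 12584). An unadjusted p below 0.05 was reached by 1 of the 41 members and 932 of the 12584 genes. The median log2 fold change of the members was 0.11 with offsets, against 0.02 for all genes. Of the members, 37 remained above 0, and Atp5g1, Cox8a, Sdhd and Uqcrq had values just below it, from -0.03 to -0.00033. The quasi-likelihood F-test with the same offsets also called 0 members, with 2 of the 41 members and 1119 of the 12584 genes at an unadjusted p below 0.05. Among the called members, Atp5k (0.28), Atp5l (0.26), Cox5b (0.25) and Cox6c (0.25) kept the highest values. The medians by complex were 0.08 for complex II, 0.06 for III, 0.13 for IV and 0.10 for V.

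**Figure D5:**
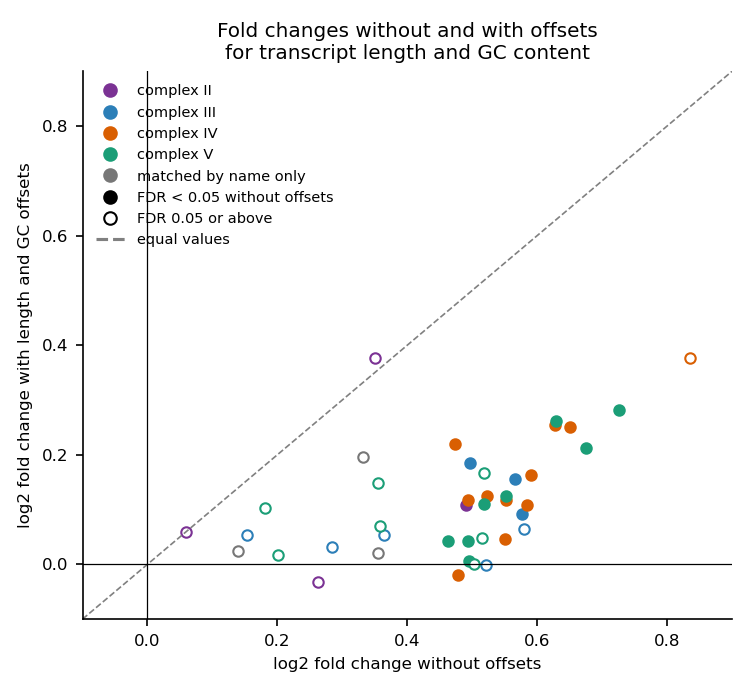
Log2 fold change of each tested member in the edgeR likelihood-ratio test without (horizontal axis) and with (vertical axis) offsets for transcript length and GC content. Filled points passed FDR < 0.05 without offsets, none passed with them, and all but 2 points, Sdha and Sdhc, lie below the dashed line of equal values.

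Other genes of the pathway were followed in lists outside the membership rule. Among electron carriers and subunits named differently, 1 of the 3 tested was called higher: Usmg5, a small subunit of the ATP synthase, had 55.6 and 47.4 CPM in the wild type libraries, 53.6 CPM in the heterozygote and 71.9 and 82.5 CPM in the EpoR-null libraries (log2 fold change 0.57, FDR 0.0107). Cycs, cytochrome c itself, and Cyc1, the cytochrome subunit of complex III, had log2 fold changes of 0.32 and 0.33 (FDR 0.333 and 0.403). Of 21 tested assembly factors 3 were called higher and none lower, with a median log2 fold change of 0.21. These were Atpif1, the inhibitor of the ATP synthase (0.62, FDR 0.000157), Ccdc56 (0.53, FDR 0.0436) and Cox19 (0.50, FDR 0.0450), the last 2 needed to assemble complex IV. With length and GC offsets the log2 fold changes of these 3 and Usmg5 were 0.17, 0.10, 0.42 and 0.24, and none passed the edgeR likelihood-ratio test (FDR 0.9999, 0.9999, 0.303 and 0.777).

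Among regulators of nuclear-encoded subunits and of mitochondrial DNA no call matched the direction of the subunits. Of 16 tested, none was called higher and 2 were called lower, with a median log2 fold change of -0.09. All but Ssbp1 (933 nt) had longer transcripts than the longest called member (1142 nt). Genes other than members had a median of 0.06 from 2000 to under 4000 nt and -0.25 from 4000 nt upwards. The part of length in the difference between regulators and subunits was not tested. Nrf1, whose core is shown above, had 84.9 and 92.5 CPM in the wild type libraries, 84.9 CPM in the heterozygote and 80.6 and 91.6 CPM in the EpoR-null libraries (log2 fold change -0.02, FDR 0.961), and the groups overlapped. The 2 called lower were subunits of GABP. Gabpb2 had 129 and 123 CPM in the wild type libraries, 134 CPM in the heterozygote and 83.2 and 71.9 CPM in the EpoR-null libraries (log2 fold change -0.73, FDR 7.75e-05), and Gabpa, the DNA-binding subunit, had 112 and 104 CPM in the wild type libraries, 116 CPM in the heterozygote and 87.9 and 80.0 CPM in the EpoR-null libraries (log2 fold change -0.40, FDR 0.0496). Both EpoR-null libraries stood below all controls in each. Their transcripts measure 8357 and 2202 nt, and with length and GC offsets the log2 fold changes were -0.22 and -0.45. Neither then passed (FDR 0.9999 and 0.0566, edgeR likelihood-ratio test), and neither passed the quasi-likelihood F-test without a replicate block (FDR 0.0590 and 0.0888). Ppargc1a, the coactivator of mitochondrial biogenesis, was low, at 1.22 to 1.64 CPM in controls and 1.62 and 0.775 CPM in EpoR-null libraries (FDR 0.859). Tfam, the packaging factor of mitochondrial DNA, had a log2 fold change of 0.09 (FDR 0.796), and Esrra one of 0.14 (FDR 0.804).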

How the data were processed

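PolyA RNA from 5 neural tube samples was analysed: 2 wild type and 1 heterozygote as controls and 2 EpoR-null, grouped by the genotype and number in the labels. Per the submitters' processing notes, reads were checked with FastQC, trimmed with Trimmomatic 0.32, aligned with TopHat2 2.1.0 to mm9 and counted per gene with HTSeq 0.6.1, whereas the study's methods name another build. The authors deposited the raw read counts of each sample, not normalized. Reads with several alignments or over more than 1 gene are left out by HTSeq, so genes with close copies or overlapping neighbours may be undercounted. Counting is not stated to use strand. The summary lines of the counter, among them 8.12% to 11.0% of uniquely aligned reads on no gene, were not used as genes.

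The analysis used edgeR 4.0.16 in R 4.3.3 (TMM, tagwise dispersions, exactTest, as in the study), with limma 3.58.1 and DESeq2 1.42.0. A filter of 1 CPM in at least 2 samples, set here, left 12703 of 23284 genes. The common biological coefficient of variation was 0.232. Calls used FDR < 0.05 (Benjamini-Hochberg). Standard errors came from the negative binomial information, and CPM uses TMM-scaled library sizes. Transcript length and GC content were those of the shortest best-supported principal transcript of GENCODE M21 (GRCm38), matched by symbol for 99.1% of tested genes. Offsets removed each library's loess trend (span 0.5) on both. CPM per kilobase divides by that length. Alternatives were other tests, size factors and filters, each library left out, the replicate number as a block, the offsets, and a second, unadjusted threshold of 0.001. Simulated data were used to test the exact test, DESeq2, the quasi-likelihood F-test with and without the block, and the likelihood-ratio test with and without offsets. There the share of false calls of the exact test was above its nominal FDR. The other alternatives were not simulated. The genes named with values in every sample are the called members, the highest and lowest fold change and the highest mean level of each complex, and all members of isoform families. Members, lists and tests were chosen with earlier results of these data known. Depth limits precision: 3 reads are worth 0.0715 to 0.152 CPM, and this covers counting error only.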

Additional observations from a re-analysis of the deposited data

How the results depend on the processing

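In the edgeR exact test 22 of 41 members were called higher. That count was 27 in DESeq2, 22 with RLE scaling, 21 by library size alone, 15 unfiltered, 23 with at least 10 reads everywhere, 22 in the likelihood-ratio test and 18 at the stricter unadjusted threshold of 0.001. Over all genes tested, 230 were called higher in the exact test, 575 in DESeq2, 227 with RLE scaling and 170 by library size alone. The numbers were 104 of 19294 unfiltered, 256 of 12822 with at least 10 reads everywhere and 235 in the likelihood-ratio test. Without a replicate block the quasi-likelihood F-test called 0 members and 0 other pathway genes, as did both tests with length and GC offsets. DESeq2 called 2 members of complex II. Unfiltered, 5 members of complex V and 2 other pathway genes were called higher and 1 lower; the stricter threshold gave 2 and 1.

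Leaving out each library in turn gave 1 to 32 members called higher: 0 to 3 in complex II, 0 to 7 in complex III, 0 to 10 in complex IV and 1 to 11 in complex V. Other pathway genes numbered 0 to 9 higher and 1 to 3 lower. The highest counts of calls higher came from the fit without EpoR-null 1. Calls higher rose over all genes as well in the fits without EpoR-null 1 and without EpoR-null 2. Both fits leave a single EpoR-null library, so their counts cannot show a gain particular to the members. The median log2 fold change ran from 0.37 to 0.58 over all members and 0.20 to 0.60 in complex III. It ran from 0.40 to 0.64 in complex IV and 0.37 to 0.56 in complex V. Each median was lowest without EpoR-null 2.

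Replicate numbers did not formally pair the samples: the labels do not say what a number shares, and only 2 pairs exist. Across 12703 genes the difference between wild type 1 and 2 correlated with that between EpoR-null 1 and 2 (r = 0.43, rho = 0.53). With the number as a replicate block the quasi-likelihood F-test called 9 members, 8 of them among the 22 and Atp5j2 besides, with 1 in complex III, 2 in complex IV, 5 in complex V and 1 other pathway gene higher. Of the 12703 genes, this fit called 114 higher and 581 lower.

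Offsets for length and GC content lowered the medians in the likelihood-ratio test, the quasi-likelihood F-test and the latter with the replicate block to 0.108, 0.108 and 0.107 over all members. They were 0.084, 0.084 and 0.081 in complex II, 0.059, 0.059 and 0.034 in complex III, 0.125, 0.125 and 0.138 in complex IV, and 0.102, 0.102 and 0.085 in complex V. In the same order of fits the log2 fold change turned negative for Sdhd (-0.033, -0.033, -0.044), Uqcrq (-0.0017, -0.0015, -0.073) and Atp5g1 (-0.00033, -0.00060, -0.031), in the first pair of fits for Cox8a (-0.019, -0.019), and with the block alone for Atp5b (-0.0041), Atp5d (-0.0022) and Atp5s (-0.025). The fits with offsets test fewer genes, and why the calls were lost was not tested. Without division by length, or with the longer Atp5g1 transcript, isoform shares shifted but no family changed its leading isoform other than Atp5g, where Atp5g3 led by raw counts. Low counts limit the tissue-restricted isoforms, most of which stood at or under the level of 3 reads.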
